A study of Danio rerio with 12 samples.

Results

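The genes ciarta, ciartb, cipca, cipcb, bhlhe40 and bhlhe41 encode repressors of the circadian clock, and their transcript levels were followed in zebrafish skeletal muscle after fasting and refeeding. They were taken from the deposited expression table by gene name, which gave 6 of its 25281 genes. Muscle between the anus and the caudal tail fin was collected from wild-type fish, whose age is labelled as 2 to 3 months, while the study's methods describe somewhat older fish. Groups were Fast (24 h without food), Refed_3h and Refed_8h (3 h and 8 h after food was returned), each with 4 separate fish, 2 female and 2 male by the study's methods, although the sex behind each library is not given. All groups had passed through the same fast, and no group without a fast was analysed here. The groups were also collected at successive times of 1 course, so the time of day and the time since refeeding cannot be told apart. The light schedule is not given in the sources used here.

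In the vertebrate clock, CLOCK or NPAS2 pairs with BMAL (arntl genes in the fish) and activates genes through E-box sequences, and the products of some of these genes feed back as repressors. From work in mammals, CIART (also called CHRONO) is a repressor that binds BMAL1, and CIPC is a repressor that binds CLOCK. BHLHE40 and BHLHE41 (DEC1 and DEC2) are basic helix-loop-helix Orange proteins that bind E-boxes and repress genes there. Skeletal muscle has such a clock, and the transcripts of its repressor genes rise and fall over the day.

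On the genome build GRCz11, ciarta (ENSDARG00000058094) lies on the minus strand of chromosome 19 from 8928434 to 8940068, and its paralog ciartb (ENSDARG00000088171) on the minus strand of chromosome 25 from 26669680 to 26673570. The gene cipca (ENSDARG00000075397) lies on the plus strand of chromosome 17 from 44756247 to 44761580, and cipcb (ENSDARG00000078095) on the plus strand of chromosome 20 from 54333774 to 54346440. The gene bhlhe40 (ENSDARG00000004060) lies on the minus strand of chromosome 11 from 35759652 to 35763323, and bhlhe41 (ENSDARG00000041691) on the plus strand of chromosome 18 from 16125852 to 16130165. The 6 genes thus sit on 6 chromosomes, and none overlaps another gene of the table.

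The counts assigned to genes summed to 11929140 to 15810710 per library in Fast, 15037143 to 17467497 in Refed_3h and 15211830 to 18446239 in Refed_8h. All 6 genes were among the 16745 that passed the filter on low counts, and none had a count of 0 in any library. Levels are given below as the deposited TPM, which is relative to transcript length and has the same sum in every library. Changes are log2 fold changes of counts scaled by TMM, from 1 edgeR model of the 3 groups, with the p-value adjusted over all 16745 genes. A gene was called where the adjusted p was under 0.05 and the change at least 2-fold. In bulk muscle, fewer cells of a type and less RNA per cell cannot be told apart. Skin markers moved with the groups in TPM. The summed level of 16 skin epithelium genes was 11885 to 20176 TPM in Refed_3h and 10934 to 20187 TPM in Refed_8h. In Fast it was 20711 to 23233 TPM. With counts scaled by TMM, the log2 of the sum was 14.1 to 14.6 in Refed_3h, which overlapped Fast at 14.4 to 14.8. Refed_8h, at 13.8 to 14.3, lay below Fast. None of the 16 skin genes was called in any comparison. Markers of the labelled tissue were high in every group. The sum of 17 skeletal muscle genes was 89661 to 110593 TPM in Fast, 100060 to 131587 in Refed_3h and 98318 to 131661 in Refed_8h. Of the 16 tested, only pvalb2 was called, higher in Refed_3h than in Fast. Their median log2 fold change in edgeR was 0.69 in Refed_3h and 0.37 in Refed_8h, each against Fast. In Refed_8h against Refed_3h it was -0.36. The medians over all genes tested were -0.01, 0.00 and 0.01.

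All 6 repressor genes were called lower in Refed_8h than in Fast, and 5 of the 6 were already called lower in Refed_3h, where bhlhe40 was lower in every fish but did not pass the test. None was called higher in any comparison by edgeR or DESeq2, and 0 had a higher level at an unadjusted p under 0.05. In Refed_3h against Fast, 5 of 6 were called lower, where 1.39% of all tested genes were called lower and 0.687% higher. In Refed_8h against Fast, 6 of 6 were called lower (ciartb in only 8 of 22 alternative fits), where 0.609% of all tested genes were called lower and 0.376% higher. In Refed_8h against Refed_3h, ciarta, cipcb and bhlhe40 were called lower, where 1.09% of all tested genes were called lower and 1.7% higher. In CPM, which was scaled as the counts were, no refed fish overlapped the Fast fish for any of the 6 genes, a lack of overlap that 7.02% of all genes showed in this direction in Refed_3h and 3.83% in Refed_8h. Between Refed_8h and Refed_3h, 4 of the 6 did not overlap (ciarta, cipcb, bhlhe40 and bhlhe41), against 7.94% of all genes.

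**Figure D1:**
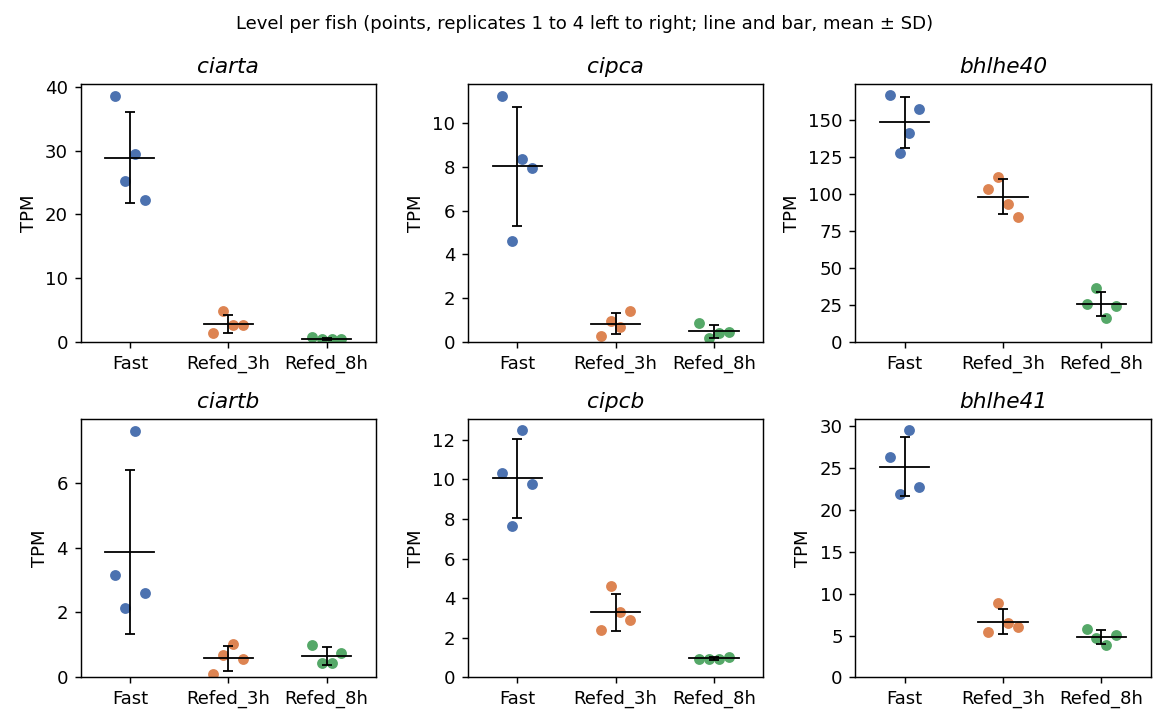
Level of each of the 6 clock repressor genes in each fish (y axis, TPM, with a linear scale of its own for each gene), by group on the x axis. Points are fish, and lines with bars are means ± SD (n = 4 each). The Fast fish lie above every refed fish in all 6 genes, and bhlhe40 is the gene whose Refed_3h fish, at 84.5 to 112 TPM, stay nearest to Fast.

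The gene ciarta, whose mammalian counterpart represses through BMAL1, had the largest change of the 6. Its level was 38.6, 25.3, 29.5 and 22.3 TPM in the Fast fish, 1.38, 4.81, 2.65 and 2.65 TPM in the Refed_3h fish, and 0.796, 0.427, 0.410 and 0.515 TPM in the Refed_8h fish. The 3 groups formed 3 separate ranges, and the highest Refed_8h fish lay below the lowest Refed_3h fish. Group means (± SD, n = 4 each) were 28.9 ± 7.08, 2.87 ± 1.43 and 0.537 ± 0.179 TPM in time order, so the refed means were 9.94% and 1.86% of the Fast mean. In Refed_3h ciarta fell by 2.97 on the log2 scale relative to Fast (SE 0.27, edgeR adjusted p = 9.1e-05), a 7.84-fold lower level. In Refed_8h it fell by 5.63 relative to Fast (SE 0.32, edgeR adjusted p = 8.4e-07), which is 49.6-fold lower and the 3rd lowest log2 fold change of the 16745 genes (19.2-fold by limma on log2(TPM + 1), which understates changes of low genes). The step between the refed groups passed as well, with a log2 fold change of -2.66 in Refed_8h relative to Refed_3h (SE 0.31, edgeR adjusted p = 4.0e-04).

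Its paralog ciartb was read at far lower depth in Fast and Refed_3h, and at lower depth in Refed_8h. The counts behind it were 25, 19, 51 and 24 in the Fast fish, 1, 7, 9 and 6 in the Refed_3h fish, and 9, 4, 4 and 8 in the Refed_8h fish. In TPM its values were 3.15, 2.12, 7.58 and 2.61 in Fast, 0.110, 0.686, 1.04 and 0.554 in Refed_3h, and 1.00, 0.433, 0.457 and 0.766 in Refed_8h. Fast replicate 3 stood well above the other Fast fish, every refed fish lay below every Fast fish, and the 2 refed groups overlapped. Group means were 3.87 ± 2.51, 0.598 ± 0.385 and 0.664 ± 0.270 TPM (SD, n = 4 each). The log2 fold change was -2.31 in Refed_3h relative to Fast (SE 0.54, edgeR adjusted p = 0.030) and -2.41 in Refed_8h relative to Fast (SE 0.53, edgeR adjusted p = 0.041). Both calls were close to the threshold: the adjusted p was 0.065 and 0.10 without Fast replicate 3, and the call in Refed_3h was also lost without Fast replicate 1 or without Refed_3h replicate 1, 2 or 4, while the call in Refed_8h was lost when any library other than Refed_3h replicate 1 or 3 was left out, 10 in all. Between Refed_8h and Refed_3h ciartb differed by -0.10 with a 95% interval of -1.36 to 1.16 (edgeR adjusted p = 0.95), an interval that holds changes of more than 2-fold in either direction.

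The CIPC paralogs were at like levels in fasted muscle. The step from Refed_3h to Refed_8h was called for cipcb and not for cipca. A difference between the 2 in that step did not pass (exact permutation p = 0.23, adjusted 0.29). The gene cipca had 11.2, 4.59, 8.33 and 7.94 TPM in the Fast fish, 0.293, 0.942, 0.679 and 1.43 TPM in the Refed_3h fish, and 0.889, 0.173, 0.427 and 0.460 TPM in the Refed_8h fish. Refed fish of the 2 groups were interleaved, and all lay below the lowest Fast fish. Its means for Fast, Refed_3h and Refed_8h were 8.02 ± 2.72, 0.836 ± 0.476 and 0.487 ± 0.297 TPM (SD, n = 4 each). It fell by 2.82 in Refed_3h relative to Fast on the log2 scale (SE 0.44, edgeR adjusted p = 0.0039) and fell by 3.92 in Refed_8h relative to Fast (SE 0.47, edgeR adjusted p = 6.0e-04). The difference between Refed_8h and Refed_3h, -1.10 with a 95% interval of -2.15 to -0.05, did not pass (edgeR adjusted p = 0.20). The counts in refed fish were low, 5 to 29 in Refed_3h and 3 to 15 in Refed_8h.

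The other copy, cipcb, became lower in 2 steps. Its level was 10.3, 7.65, 12.5 and 9.74 TPM in the Fast fish, 2.42, 4.60, 3.30 and 2.89 TPM in the Refed_3h fish, and 0.925, 0.915, 0.952 and 1.05 TPM in the Refed_8h fish. The 3 groups were separate, and the 4 Refed_8h fish lay within a narrow range. Means were 10.0 ± 1.98, 3.30 ± 0.935 and 0.960 ± 0.0610 TPM (SD, n = 4 each), or 32.9% and 9.56% of the Fast mean in Refed_3h and Refed_8h. Relative to Fast, cipcb fell by 1.26 on the log2 scale in Refed_3h (SE 0.17, edgeR adjusted p = 0.0019) and fell by 3.27 in Refed_8h (SE 0.19, edgeR adjusted p = 8.4e-07). Its level in Refed_8h was also lower than in Refed_3h, at -2.01 on the log2 scale (SE 0.18, edgeR adjusted p = 7.5e-05).

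The gene bhlhe40 was the most abundant of the 6 in every fish, and its large change came after 3 h. It had 167, 128, 141 and 158 TPM in the Fast fish, 103, 112, 93.6 and 84.5 TPM in the Refed_3h fish, and 25.5, 36.5, 16.1 and 24.6 TPM in the Refed_8h fish. The 3 groups did not overlap, with the wider gap between Refed_8h and Refed_3h. Means were 149 ± 17.4, 98.3 ± 11.9 and 25.7 ± 8.37 TPM (SD, n = 4 each). The log2 fold change of -0.25 in Refed_3h relative to Fast did not pass (SE 0.22, 95% interval -0.71 to 0.22, edgeR adjusted p = 0.52). The size of this difference depended on the scaling: in CPM the fish spanned 176 to 207 in Refed_3h and 221 to 257 in Fast, and limma on log2(TPM + 1) gave -0.59 (adjusted p = 0.083), on a scale where the median of all genes was -0.26. In Refed_8h bhlhe40 fell by 2.40 relative to Fast (SE 0.23, edgeR adjusted p = 6.7e-05) and fell by 2.16 relative to Refed_3h (SE 0.23, edgeR adjusted p = 2.2e-04).

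In contrast, bhlhe41, the other DEC gene, was low by 3 h. Its level was 26.4, 22.0, 29.6 and 22.7 TPM in the Fast fish, 5.39, 8.91, 6.47 and 5.99 TPM in the Refed_3h fish, and 5.74, 4.73, 3.82 and 5.07 TPM in the Refed_8h fish. All refed fish lay below all Fast fish, and in TPM Refed_8h replicate 1 reached into the Refed_3h range. Means were 25.2 ± 3.52, 6.69 ± 1.54 and 4.84 ± 0.799 TPM (SD, n = 4 each). It fell by 1.57 on the log2 scale in Refed_3h (SE 0.15, edgeR adjusted p = 1.4e-04) and fell by 2.28 in Refed_8h (SE 0.15, edgeR adjusted p = 2.2e-06), each relative to Fast. Between Refed_8h and Refed_3h the log2 fold change was -0.71 (SE 0.15, edgeR adjusted p = 0.016), which passed on the adjusted p but was under 2-fold. On that step the scaling counted: the 2 groups did not overlap in CPM (7.76 to 10.2 in Refed_8h, 12.1 to 18.1 in Refed_3h), and limma on log2(TPM + 1) gave an adjusted p of 0.20.

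**Figure D2:**
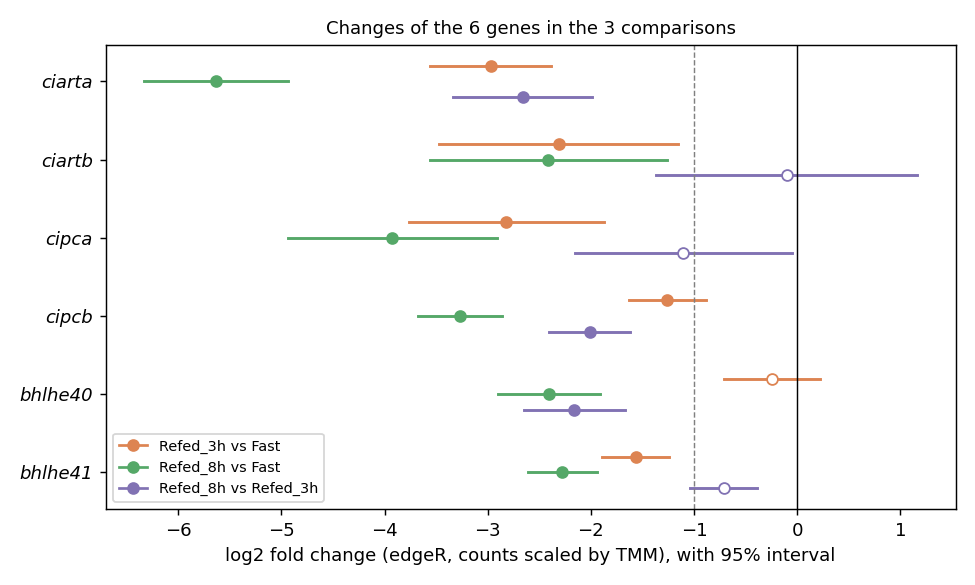
Log2 fold change of the 6 genes in the 3 comparisons (x axis, edgeR on counts scaled by TMM). Filled points were called, open points were not, horizontal lines are 95% intervals and the dashed line marks a 2-fold lower level. The largest change is that of ciarta in Refed_8h relative to Fast (-5.63), and the open points are bhlhe40 in Refed_3h relative to Fast and ciartb, cipca and bhlhe41 between the refed groups.

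By these estimates, the 6 genes differed in how much of the 8 h change was present at 3 h. The log2 fold change in Refed_3h was 95.8% of that in Refed_8h for ciartb, 71.9% for cipca, 68.8% for bhlhe41, 52.7% for ciarta, 38.5% for cipcb and 10.2% for bhlhe40. By limma on log2(TPM + 1) the order was the same and the shares were higher, 105%, 88.8%, 82.1%, 70.2%, 55.2% and 23.4%. These shares are descriptions, since both changes were taken against the same Fast fish, and no interval was made for them. That of ciartb rests on 1 to 9 counts per refed library, and the order of the genes was not tested. The genes with the 3 highest estimates, ciartb, cipca and bhlhe41, belong to 3 families.

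Whether 2 paralogs changed unequally was tested with the log2 ratio of their counts within each fish, which does not depend on scaling. Library depth enters the ratio only through the 0.5 added to each count. This weighs most on the low counts of ciartb and cipca in refed fish. With 4 fish against 4, the exact permutation test (two-sided) cannot give a p under 0.029, and p-values were adjusted over 9 tests. The ratio of bhlhe40 to bhlhe41 averaged 2.39 ± 0.23 in Fast, 3.72 ± 0.26 in Refed_3h and 2.19 ± 0.40 in Refed_8h on the log2 scale (SD, n = 4 each). Every Refed_3h fish had a higher ratio than every fish of the other groups. The ratio differed by 1.33 between Refed_3h and Fast and by -1.53 between Refed_8h and Refed_3h (each exact permutation p = 0.029, adjusted 0.051), and by -0.21 between Refed_8h and Fast (exact permutation p = 0.43, adjusted 0.43). In mean TPM, bhlhe40 was 5.91 times bhlhe41 in Fast, 14.7 times in Refed_3h and 5.30 times in Refed_8h.

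The ratio of ciarta to ciartb averaged 4.52 ± 0.76 in Fast, 3.79 ± 0.78 in Refed_3h and 1.14 ± 0.21 in Refed_8h (log2 of counts, SD, n = 4 each). The Refed_8h fish lay below all others. The difference was -3.38 between Refed_8h and Fast and -2.65 between Refed_8h and Refed_3h (each exact permutation p = 0.029, adjusted 0.051), and -0.73 between Refed_3h and Fast (exact permutation p = 0.26, adjusted 0.29). In mean TPM, ciarta was 7.48 times ciartb in Fast and 4.81 times in Refed_3h, and 0.809 times ciartb in Refed_8h.

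The ratio of cipca to cipcb averaged -2.53 ± 0.37 in Fast, -4.26 ± 0.80 in Refed_3h and -3.26 ± 0.89 in Refed_8h (log2 of counts, SD, n = 4 each). The Refed_3h fish lay below all Fast fish, while the Refed_8h fish overlapped both groups. The difference was -1.73 between Refed_3h and Fast (exact permutation p = 0.029, adjusted 0.051), -0.73 between Refed_8h and Fast (p = 0.17, adjusted 0.26, exact permutation) and 1.00 between Refed_8h and Refed_3h (p = 0.23, adjusted 0.29, exact permutation). Of the 9 differences, 5 reached the smallest p that this design allows, and none passed 0.05 after adjustment. With 5 of 9 tests at that p the adjusted value is 0.051, so these 5 could not pass whatever their size. With TPM + 0.1 in place of counts none passed either, the lowest adjusted p by the same exact test being 0.051. With TPM + 1, 6 of the 9 had an adjusted p of 0.043 by that test, because 6 then reached the smallest p. Some differences moved, to -1.47 for ciarta over ciartb in Refed_3h against Fast and to -0.09 for cipca over cipcb in Refed_8h against Fast.

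**Figure D3:**
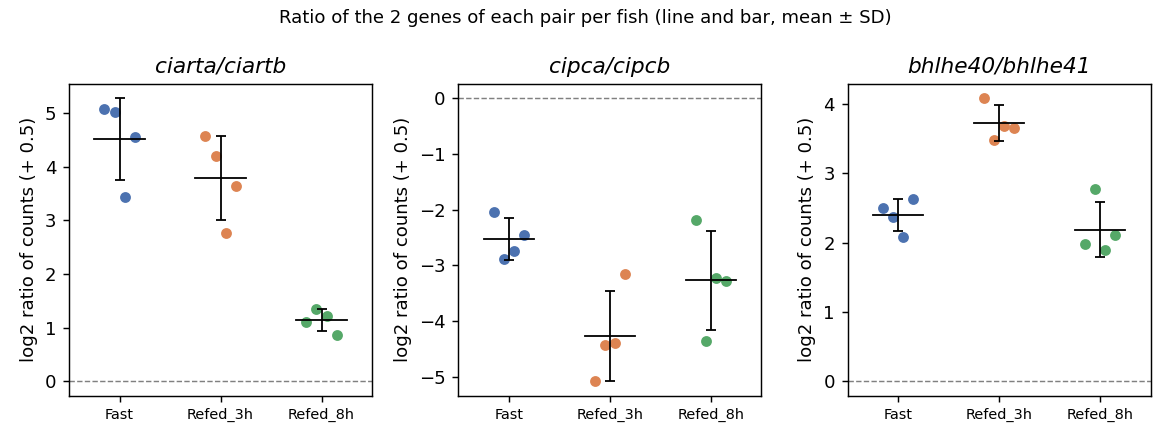
Log2 ratio of counts of the paralogs in each fish (y axis) for ciarta over ciartb, cipca over cipcb and bhlhe40 over bhlhe41, by group. Points are fish, and lines with bars are means ± SD (n = 4 each). The ratio of bhlhe40 to bhlhe41 is highest in Refed_3h (mean 3.72), that of ciarta to ciartb is lowest in Refed_8h (mean 1.14) and that of cipca to cipcb is lowest in Refed_3h (mean -4.26).

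The order of the levels in TPM changed with the groups. In Fast, bhlhe40 stood above all others, ciarta and bhlhe41 came next with overlapping ranges, and cipcb, cipca and ciartb followed, each overlapping its neighbour. In Refed_3h and Refed_8h, bhlhe41 was alone in the second place, and ciarta had joined the overlapping low genes with cipcb, cipca and ciartb. The TPM of the 6 genes summed to 225 ± 27.6, 113 ± 14.2 and 33.2 ± 8.65 in Fast, Refed_3h and Refed_8h (SD, n = 4 fish a group), and bhlhe40 made up 66.3%, 87.4% and 76.5% of it.

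Within a group, certain fish were low or high in several of the genes. Fast replicate 2 had the lowest TPM of its group in 5 of the 6 genes, all but ciarta. Refed_3h replicate 1 was lowest in 5 (all but bhlhe40), and Refed_3h replicate 2 was highest in ciarta, cipcb, bhlhe40 and bhlhe41. Refed_8h replicate 1 was highest in ciarta, ciartb, cipca and bhlhe41. Over all 12 libraries, which share the differences between groups, Pearson's r of log2 CPM between the genes ran from 0.44 for ciartb with bhlhe40 to 0.98 for ciarta with bhlhe41. With the group means taken off, the 10 pairs without bhlhe40 ranged from 0.30 to 0.72, and the 5 pairs with bhlhe40 from -0.39 to 0.38. These are descriptions over 12 fish that share the scaling of their library. Differences in log2 CPM from Fast, over the 6 genes and both refed groups, were -5.42 to -0.14 in replicates 1 and 2. In replicates 3 and 4 they were -5.49 to -0.36. All of these had to be below 0, because no refed fish overlapped the Fast fish in CPM, so they are no repeat of the result.

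The genes whose log2 CPM followed each repressor most closely over the 12 libraries were ranked by Pearson's r, again as a description of fish that share group and library. The pattern of ciarta was nearest to nr1d2b (r = 0.98, Spearman's rho = 0.93), a REV-ERB repressor gene, followed by cavin2b (r = 0.97, rho = 0.97) and cry2 (r = 0.97, rho = 0.93), a cryptochrome gene. For cipcb the nearest were per3 (r = 0.99, rho = 0.97) and per1b (r = 0.98, rho = 0.97), both period genes, together with nr1d2b (r = 0.99, rho = 0.95). For bhlhe41 they were cry2 (r = 0.98, rho = 0.93), si:dkey-18a10.3 (r = 0.97, rho = 0.92) and znf395b (r = 0.97, rho = 0.91). By Pearson's r, clock genes were thus among the nearest 3 for these repressors, but by rho only cipcb kept any. For cipca they were zgc:162154 (r = 0.96, rho = 0.88), the REV-ERB gene nr1d1 (r = 0.94, rho = 0.88) and si:dkey-18a10.3 (r = 0.94, rho = 0.78). For ciartb, at low depth, they were rictora (r = 0.94, rho = 0.87), whose mammalian counterpart is a subunit of the mTORC2 kinase complex, HOOK3 (r = 0.92, rho = 0.88) and plekha6 (r = 0.92, rho = 0.96). The pattern of bhlhe40 was nearest to noxo1a (r = 0.98, rho = 0.94), clec11a (r = 0.96, rho = 0.94) and rorab (r = 0.95, rho = 0.52), a ROR receptor gene whose 2 measures were far apart. Ranked by rho instead, the first 3 genes held 2 of the same 3 for cipcb and bhlhe40, 1 for ciarta and ciartb, and 0 for cipca and bhlhe41.

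The other clock genes did not move in a single direction. Of 40 tested, 11 were called lower and 4 higher in Refed_3h against Fast, 9 lower and 10 higher in Refed_8h against Fast, and 5 lower and 7 higher in Refed_8h against Refed_3h. Their median log2 fold changes were -0.28, -0.11 and 0.15, beside -0.01, 0.00 and 0.01 over all genes tested. The period genes per1a, per1b and per3, repressors that act with the cryptochromes, were called lower in both refed groups against Fast, 3 of 4 tested. Of 5 REV-ERB genes, nr1d1, nr1d2a, nr1d2b and nr1d4b were called lower in Refed_3h, whereas in Refed_8h nr1d1 and nr1d2b were lower and nr1d4b was higher than in Fast. Of 7 cryptochrome genes, cry2 was called lower and cry3a and cry3b higher in both refed groups, with cry4 higher in Refed_8h. The D-box activator genes dbpa and dbpb were called lower in both refed groups and tefb in Refed_3h, 5 being tested, and among 3 NFIL3 repressor genes nfil3-5 was called higher in both refed groups and nfil3 in Refed_8h. Of 4 ROR genes, rorcb was called higher in both refed groups against Fast and rorab lower in Refed_8h, and of 6 genes for clock kinases and F-box proteins fbxl3l was called higher in Refed_8h.

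The partners that these repressors act on, in the mammalian clock, were called in the opposite direction where they were called. None of the 6 activator genes tested was called in Refed_3h against Fast, where 2 had an unadjusted p under 0.05 and DESeq2 called 0. The value of clocka was -1.19 on the log2 scale (edgeR adjusted p = 0.12) and that of arntl1a 0.65 (edgeR adjusted p = 0.049, under 2-fold). In Refed_8h the BMAL genes arntl1a and arntl2 were higher than in Fast, by 1.11 (SE 0.17, edgeR adjusted p = 0.0044) and 2.22 (SE 0.41, edgeR adjusted p = 0.014). The values of arntl1b (1.68, adjusted p = 0.059) and npas2 (1.26, adjusted p = 0.14) did not pass in edgeR, although DESeq2 called arntl1b. In Refed_8h against Refed_3h, clocka was higher by 2.17 (SE 0.42, edgeR adjusted p = 0.011) and arntl2 by 2.34 (SE 0.41, edgeR adjusted p = 0.0060). For clockb the log2 fold changes were -0.01, 0.29 and 0.31 in the 3 comparisons, and none passed.

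**Figure D4:**
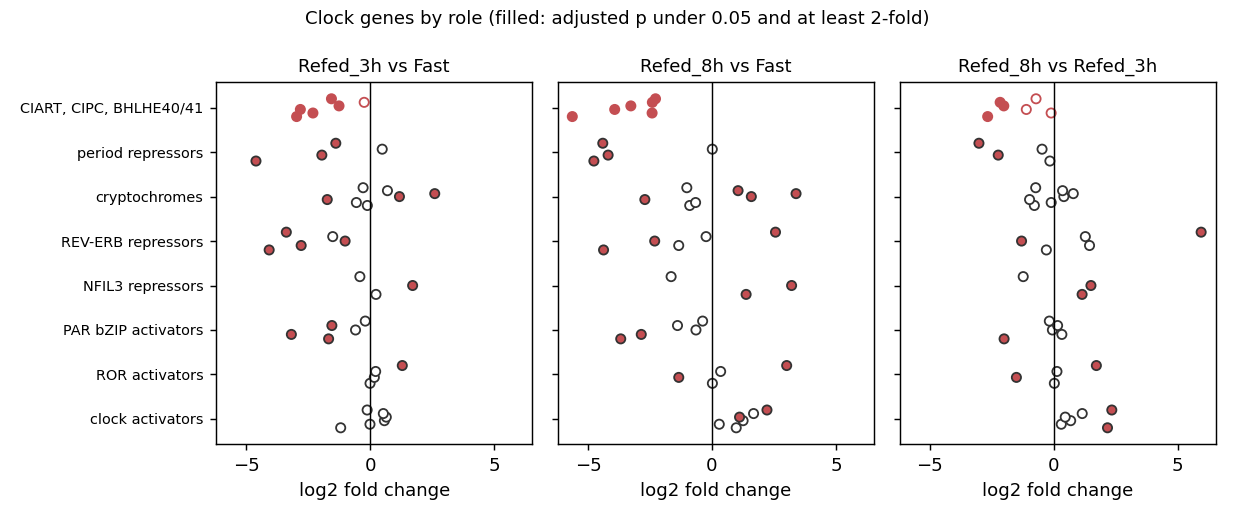
Log2 fold change (edgeR, counts scaled by TMM) of the clock genes tested, grouped by role, in each of the 3 comparisons (panels). Genes for clock kinases and F-box proteins are not shown. Each point is a gene, and filled points were called. The 6 repressors all lie below 0. In other roles some genes do too, such as per1a, per1b and per3 against Fast. Others lie above 0, such as arntl2 at 2.22 in Refed_8h against Fast.

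Relatives by sequence and genes of a known input were also counted. BHLHE40 and BHLHE41 belong to the bHLH-Orange proteins. Of a list of hey, her, hes and other bHLH genes, bhlhe22 and bhlhe23 included, 26 were in the table and 6 were tested. Of these only her6 was called by edgeR or DESeq2, and it was higher in Refed_3h against Fast (1 of 6, beside 0.687% of all genes). BHLHE40 is induced by low oxygen in mammals, and of 19 other hypoxia-inducible genes tested, vegfaa, vegfab and epoa were called higher in Refed_3h against Fast (15.8% of the list, beside 0.687% of all genes) and lower in Refed_8h against Refed_3h (15.8%, beside 1.09%). DESeq2 also called ndrg1b higher in Refed_8h against Refed_3h, and 0 genes of the list were called in Refed_8h against Fast by either tool (3 at an unadjusted p under 0.05).

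The genes next to the 6 repressors on GRCz11 were also read, since they lie 1858 to 65150 bases away. Of these 12 neighbours 9 were tested, and none was called in any comparison by edgeR or DESeq2 (2, 1 and 2 had an unadjusted p under 0.05). Their log2 fold changes ran from -0.60 to 0.90 in Refed_3h against Fast, from -0.48 to 0.51 in Refed_8h against Fast and from -0.59 to 0.66 in Refed_8h against Refed_3h. The nearest, rprd2a, lies 1858 bases from ciarta and was among the 9 tested. So were sspn and ctsd, on either side of bhlhe41 at 2629 and 3429 bases. In Refed_8h against Refed_3h ctsd passed on the adjusted p (log2 fold change 0.66, edgeR adjusted p = 0.034) but was under 2-fold.

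Other cell types in the sample were followed by their marker genes. Besides skin, the summed level of 11 endothelium genes was 62.3 to 80.3 TPM in Refed_3h and 87.3 to 116 TPM in Refed_8h, against 104 to 112 TPM in Fast. For 10 leukocyte genes it was 2036 to 2880 TPM in Refed_3h and 2766 to 4954 TPM in Refed_8h, against 2820 to 3452 TPM in Fast. For 11 pigment cell genes it was 12.4 to 23.8 TPM in Refed_3h and 18.8 to 29.4 TPM in Refed_8h, against 23.2 to 49.7 TPM in Fast. For 6 erythrocyte genes it was 1149 to 5129 TPM in Refed_3h and 1215 to 2040 TPM in Refed_8h, against 938 to 1587 TPM in Fast. No gene of these lists was at 0 throughout a group. Summed TPM depends on the scaling. The median of all genes in Refed_3h against Fast was -0.26 on log2(TPM + 1) and -0.01 in edgeR. Median edgeR log2 fold changes there were 0.02 for endothelium, -0.22 for leukocyte, -0.64 for pigment cell and 1.35 for erythrocyte genes tested. For Refed_8h against Fast they were -0.09, 0.39, -0.575 and 0.04. None of these genes was called in either comparison. In Refed_8h against Refed_3h the medians were -0.12, 0.77, 0.25 and -1.03. There 1 of 11 endothelium genes (plvapb) and 2 of 10 leukocyte genes (mpeg1.2 and mpx) were called higher, beside 1.7% of all genes. No gene of the neuron, glia and fibroblast lists was called in any comparison. With the skin marker level as a covariate in edgeR, the log2 fold change in Refed_8h against Fast was -5.56 for ciarta, -4.13 for cipca, -3.41 for cipcb, -2.55 for bhlhe40 and -2.24 for bhlhe41, all still called. That of ciartb was -3.01 and no longer passed (edgeR adjusted p = 0.17). The skin level of every Refed_8h fish lay below that of every Fast fish. The fit therefore cannot separate skin level from group in Refed_8h against Fast. Over all genes, 42 were called there with the covariate and 165 without it. In the other 2 comparisons the calls of all 6 genes stayed as they were.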

How the data were processed

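Poly(A) RNA of 12 fish was sequenced in paired ends, and the authors used CLC Genomics Workbench with the genome GRCz11 to count reads per gene. Which annotation release and strand setting were used, and how reads matching both paralogs were treated, is not given in the sources used here. Deposited was 1 table with counts per gene and library (whole numbers, not normalized) and TPM, which is relative to transcript length. The table also holds 24 columns of RPKM and CPM per library and 18 columns of the authors' comparisons (fold changes and p-values), none of which was used.

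The 6 genes and all lists were chosen with earlier results of these data known. The deposited counts went through edgeR 4.0.16 (R 4.3.3): filterByExpr (16745 of 25281 genes kept), TMM factors (0.790 to 1.21), the robust quasi-likelihood fit of 1 model of 3 groups, and Benjamini-Hochberg adjustment over all tested genes. A call needed both a change of 2-fold or more and an adjusted p under 0.05. The biological coefficient of variation was 30.6%. The fit was also run on counts simulated with the mean levels and dispersions of these data. That run checked the code only and cannot show whether the model suits these data. Ratios of paralogs used counts + 0.5 and two-sided exact permutation tests over fish. Likeness used log2 CPM with a prior count of 2. Genes named are the 6, the 3 nearest to each by Pearson's r, the activators tested, and genes behind counts of 5 or fewer; rprd2a, sspn and ctsd were named after their values were seen. No 2 libraries were repeats (chi-square per gene of 31.2 to 63.2 over 18 pairs within groups). Fish of the study shared tanks, so p-values measure the spread between these fish. Alternatives were RLE factors, DESeq2 1.42.0, no filter, no fold threshold, a fit of only the groups compared, a replicate block, limma 3.58.1 on log2(TPM + 1) and log2(TPM + 0.1), a skin marker covariate, and each library left out in turn. Promoter motifs and protein identity were not analysed here.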

Additional observations from a re-analysis of the deposited data

How the results depend on the processing

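Over 22 alternatives, 10 that kept all libraries and 12 that left out 1, ciarta, cipca, cipcb, bhlhe40 and bhlhe41 kept their direction and their call in every comparison, except that bhlhe41 in Refed_8h against Refed_3h was called where no fold threshold was set. Sizes moved by over 1.5 times under limma on log2(TPM + 1), to -1.27 for ciarta, -1.11 for cipcb, -0.29 for cipca and -0.39 for bhlhe41 in Refed_8h against Refed_3h, to -2.57 for cipca in Refed_8h against Fast and to -0.59 for bhlhe40 in Refed_3h against Fast. On log2(TPM + 0.1), cipca moved to -0.65 and bhlhe41 to -0.45 in Refed_8h against Refed_3h, and bhlhe40 to -0.60 in Refed_3h against Fast. Without Refed_3h replicate 4, cipca moved to -0.59 in Refed_8h against Refed_3h. Differences of paralog ratios kept their sign when a library was left out, but those that did not reach the smallest p moved widely: -1.09 to -0.38 (ciarta over ciartb, Refed_3h against Fast), -1.09 to -0.37 and 0.64 to 1.36 (cipca over cipcb, Refed_8h against Fast and against Refed_3h) and -0.40 to -0.11 (bhlhe40 over bhlhe41, Refed_8h against Fast). With ciartb the count of the 6 genes called was 4 to 5, 5 to 6 and 3 to 3 in the 3 comparisons when a library was left out. The call of ciartb in Refed_3h against Fast was lost in 5 leave-outs (adjusted p up to 0.073), and DESeq2 gave it no adjusted p. In Refed_8h against Fast it was lost in 14 alternatives, among them the fit of only these groups (0.050), limma on log2(TPM + 0.1) (0.052), the skin marker covariate (0.17) and 10 leave-outs. Its uncalled difference between Refed_8h and Refed_3h changed sign to 0.078 under limma on log2(TPM + 1), with or without a filter, to 0.30 on log2(TPM + 0.1), to 0.23 without Refed_3h replicate 3 and to 0.0010 without Refed_8h replicate 3 (-0.43 to 0.23 over the leave-outs); the cause was not tested. Libraries of the same replicate number came from different fish. With group means taken off, their r was -0.19 to 0.27 over 12 pairs (median 0.12, 7 over 0.1). Pairs of unlike number had r of -0.28 to 0.19, and 8 of 12 libraries correlated best with their own number. Whether libraries of a number share a source of variation was not tested. With the replicate block, 368, 179 and 499 genes were called, beside 347, 165 and 466, and 5, 5 and 3 of the 6 repressors; the block gave ciartb an adjusted p of 0.056 in Refed_8h against Fast and a log2 fold change of 0.013 in Refed_8h against Refed_3h.

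The number of all genes called moved by more than 1.5 times with DESeq2 (569, 331 and 720), with no fold threshold (821 in Refed_3h against Fast and 1074 in Refed_8h against Refed_3h), with limma on log2(TPM + 0.1) (737 in Refed_3h against Fast), with limma on log2(TPM + 1) in Refed_8h against Refed_3h (240, and 197 without a filter) and with the skin marker covariate in Refed_8h against Fast (42). When a library was left out it was 179 to 376, 124 to 175 and 280 to 507. On log2(TPM + 1), 94.1% of calls in Refed_3h against Fast were lower (66.9% in edgeR), and 19.2% in Refed_8h against Refed_3h (39.1% in edgeR), and the median of all genes was -0.26 and 0.18 on that scale (-0.01 and 0.01 in edgeR). Depth limits ciartb and cipca, whose refed libraries held 1 to 9 and 3 to 29 counts. It also limits ciarta in Refed_8h, at 10 to 20 counts per library. The motif matches planned for promoters were not run.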
